A study of Homo sapiens with 13 samples.

Results

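The circadian clock was examined in osteoblasts with and without serum through 10 genes: PER1, PER2, PER3, CRY1, CRY2, NR1D1, NR1D2, DBP, TEF and BHLHE40. These 10 genes do not include the activators CLOCK, BMAL1 and NPAS2, which are given further below. They were chosen by symbol, each from 1 Ensembl identifier, out of 43836 genes in the table of read counts, and all 10 were among the 17092 genes with enough reads to test. The cells were hFOB 1.19, a human fetal osteoblast line made immortal with a temperature-sensitive large T antigen, so every library comes from 1 line. The medium of the positive controls held 10% fetal bovine serum (FBS), and that of the negative controls held none. The other groups were serum-starved cells given resveratrol (RES, a stilbene), peonidin-3-O-glucoside (POG, an anthocyanin) or a compound labelled DEG. The label of the DEG samples does not spell the name out, while the treatment notes list delphinidin-3-glucoside beside the other two compounds. All compounds were given at 1 µg/ml, a dose by mass, so their molar doses need not be equal. Per the study's methods the controls received the DMSO vehicle. RES and POG had 3 libraries each and the other groups had 2. The labels do not say that libraries came from separate cultures. The p-values therefore rest on the spread between libraries, shared over all groups, which may be technical.

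The circadian clock is a feedback loop of transcription that runs in most cells over the course of a day. CLOCK and BMAL1 bind E-boxes in DNA and switch on the PER and CRY genes, whose proteins return to the nucleus and repress CLOCK and BMAL1. The nuclear receptors NR1D1 and NR1D2 (REV-ERB alpha and beta) repress BMAL1, DBP and TEF activate genes through D-boxes, and BHLHE40 (DEC1) represses at E-boxes. Serum is known to set the phase of the clock in cultured cells, and bone-forming cells carry a clock of their own. The labels give no hour of harvest and each group was sampled at 1 time, so a level here cannot be read as a phase or an amplitude.

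The stretches of promoter below are shown because they carry the E-box CACGTG, through which CLOCK and BMAL1 act and BHLHE40 competes, ahead of genes whose levels moved in different directions. The last one, from PER3, carries a D-box. Capitals mark the motif. The sequences are those of RefSeq on GRCh38.p14, each read 5′ to 3′ on the gene's strand from the 250 bases before a transcription start.
PER1: gcacccaggtcCACGTGcgcccgtgtgt
NR1D2, distal E-box: gcgggcggggaCACGTGaggccgctcgg
NR1D2, proximal E-box: ggccgcagggaCACGTGggggcgggggc
TEF: cgcgacagctcCACGTGctgcagctggc
BHLHE40: tccaaCACGTGagactcatgtg
PER3: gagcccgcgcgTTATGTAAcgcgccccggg
The PER1 stretch lies at chr17:8152561-8152588 on the minus strand, in an annotated intron, and its E-box begins 173 bases before the start. Both NR1D2 stretches lie in an intron on the plus strand, at chr3:23945955-23945982 and chr3:23946005-23946032, with E-boxes 155 and 105 bases before an internal start. The TEF stretch (chr22:41367249-41367276, plus strand), the BHLHE40 stretch (chr3:4979187-4979208, plus strand) and the PER3 stretch (chr1:7784103-7784132, plus strand) lie upstream of their genes, 195, 245 and 177 bases before the start.

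The same 250 bases were searched on both strands in 35116 promoter windows, 14 of them belonging to the members. CACGTG, which is its own reverse complement, was in 6.34% of all windows and in windows of 4 members (PER1, NR1D2, TEF and BHLHE40). The E-box variant CACGTT was in 4.55% of windows and in 4 members (PER2, CRY1, CRY2 and NR1D1). D-boxes (TTACGTAA or TTATGTAA) were in 0.94% of windows and in 2 members, PER3 and NR1D2. The ROR element TAGGTCA was in 1.61% of windows and in 1 member, CRY2. The full cyclic AMP response element TGACGTCA was in 1.65% of windows and in no member window, and its shorter form TGACG, which the full element contains, was in 21.2% of windows and in 4 members. A match describes letters in a window and is not a binding site shown to be used.

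Per length, BHLHE40 was the most abundant member, at 43.8 CPM per kb of its longest annotated transcript (mean over 12 libraries; CPM are reads set to the same total in each library). PER1 followed at 21.0, NR1D2 at 16.0, CRY1 at 15.3 and NR1D1 at 12.5 CPM per kb. The remaining members ran from PER3 at 6.96 through CRY2 at 5.36, TEF at 4.28 and PER2 at 1.98 to DBP at 0.379 CPM per kb. The place of DBP at the bottom held when the canonical transcript was used, which raised it to 1.00, while NR1D2 and CRY1 changed places (16.0 and 19.6). DBP rested on 53 to 166 reads per library and the other members on 388 to 7005, so DBP carries the widest errors below.

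Library totals ran from 38464619 to 51416358 reads. Replicates differed more than sampling noise (chi-square per gene 2.06 to 2.60 between replicates, against 1 under sampling alone), and the positive controls stood apart from each other at 10.2. The tests used a spread per gene shared by all groups, so the FDRs for serum also draw on the closer replicates elsewhere. Of 10 osteoblast markers 8 reached 1 CPM, with COL1A1 at 2676 and RUNX2 at 47.8 CPM, while SP7 was at 0.101 CPM and IBSP had 1 read in all libraries together. Their summed level per library ran from 4752 to 5525 CPM, highest in the positive controls. Most of it was COL1A1, COL1A2 (1229 CPM) and SPARC (1071 CPM), which with RUNX2 and ALPL had their highest group mean there. The scarcer BGLAP, SPP1 and DLX5 did not. Group means were highest with POG for BGLAP (1.60 CPM, against 0.912 with serum) and DLX5 (1.44 against 1.14). SPP1 was highest in the negative controls (2.16 CPM, against 1.85 with serum). Among 4 markers each of other cell types, 2 of 4 reached 1 CPM for chondrocytes (summed 4.08 to 8.08 CPM), for epithelium (KRT8 and KRT18, summed 338 to 506 CPM) and for endothelium (TEK and PECAM1, summed 35.3 to 59.7 CPM). None did for adipocytes (0.465 to 1.17 CPM, LEP at 0 reads) or blood (0.318 to 1.54 CPM, CD3E at 0 reads). These summed levels were also highest in the positive controls except for the adipocyte markers, highest in DEG, and their part in the differences below was not tested. In bulk RNA, fewer cells that express a gene and less RNA per cell cannot be told apart.

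**Figure D1:**
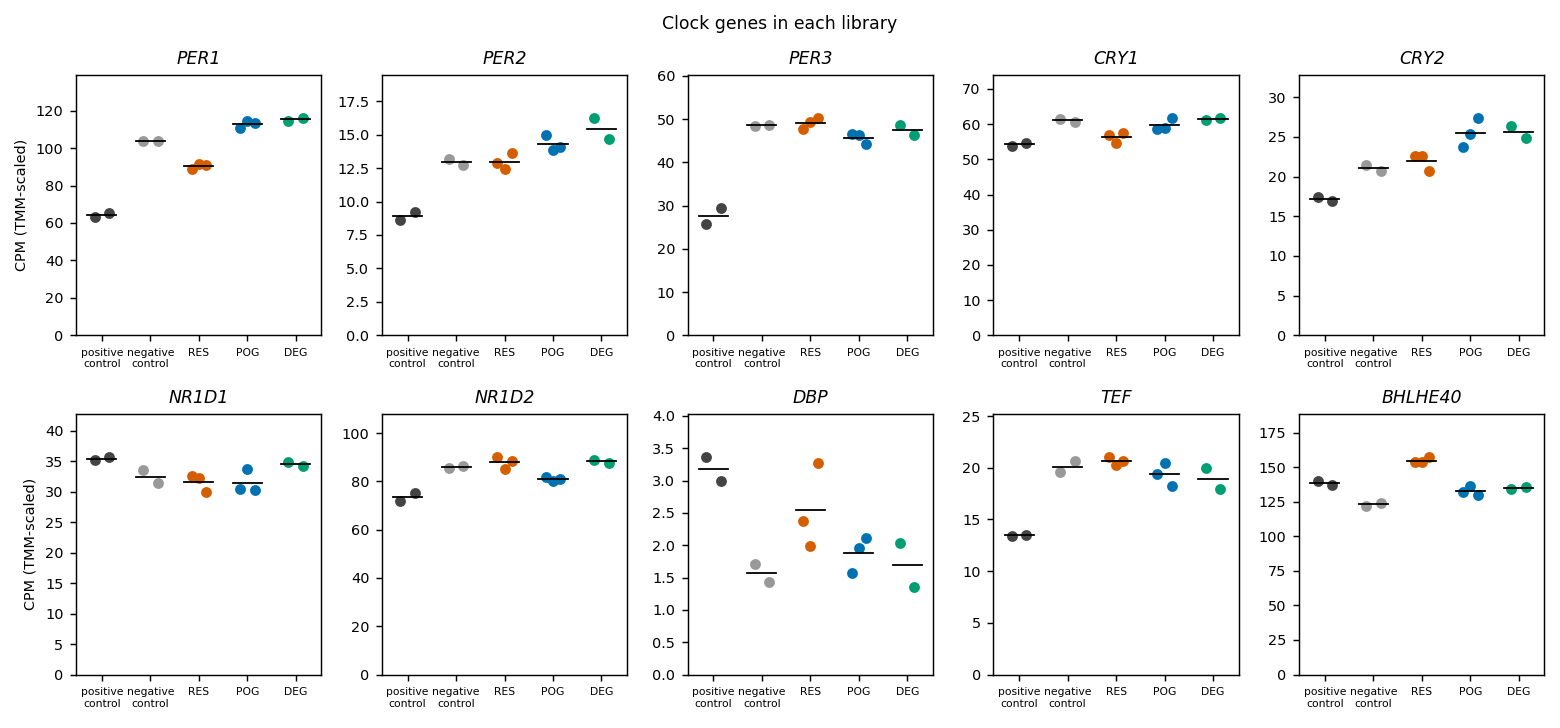
Level of each clock gene in each library, in CPM on a linear axis from 0, by group. Each point is 1 library and each bar the group mean. The positive controls lie below every other library for all PER genes, CRY1, CRY2, NR1D2 and TEF, and the RES libraries lie lowest of the serum-starved groups for PER1 and highest for BHLHE40.

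With serum, as compared with negative controls, the PER repressors, both cryptochromes, NR1D2 and TEF were lower, and DBP and BHLHE40 were higher. Of the 10 members 9 passed a threshold of 0.05 on the false discovery rate (FDR) and are called here, 2 higher and 7 lower. Over all 17092 genes 42.4% were called, 21.4% higher and 20.9% lower. The median absolute log2 fold change was 0.41 over the members and 0.21 over all genes tested. The members were chosen with earlier results of these data known. Setting them against all genes, here and for the compounds below, is therefore description only. All 9 calls were kept under each of the 11 alternatives tried, including leaving out either positive control.

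The PER genes encode repressors of the loop, and PER3 and PER1 fell furthest of all members. PER1 was at 63.2 and 65.5 CPM in the positive controls and at 104 and 104 CPM in the negative controls. It fell by 38.0% (log2 fold change -0.69, 95% interval -0.77 to -0.61, edgeR exact test FDR 8.5e-56). PER3 was at 25.8 and 29.3 CPM with serum and at 48.4 and 48.7 CPM without. Neither gene had a library of 1 group within the range of the other, and PER3 fell by 43.3% (log2 fold change -0.82, interval -0.94 to -0.70). PER2, at 8.64 and 9.20 CPM with serum and 13.1 and 12.7 CPM without, fell by 31.1% (log2 fold change -0.54, interval -0.72 to -0.36, FDR 2.24e-08).

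The cryptochromes, partners of the PER proteins in repression, moved less. CRY1 was at 53.8 and 54.6 CPM with serum and 61.3 and 60.7 CPM without, a fall of 0.17 on the log2 scale (log2 fold change -0.17, FDR 0.00146). CRY2 was at 17.4 and 17.0 CPM with serum and 21.4 and 20.7 CPM without (log2 fold change -0.29, FDR 0.000515). In both genes the groups did not overlap.

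The REV-ERB receptors did not move together. NR1D2 was at 71.8 and 75.2 CPM with serum and 85.7 and 86.4 CPM without, and fell by 14.7% (log2 fold change -0.23, interval -0.31 to -0.14, FDR 2.24e-06). NR1D1 was at 35.2 and 35.6 CPM with serum and 33.5 and 31.3 CPM without. Its log2 fold change of 0.13 (interval 0.0026 to 0.25) missed the threshold, with an FDR of 0.0900.

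DBP and TEF, relatives that activate through the same D-box, moved in opposite directions. DBP, an output gene that cycles strongly in many tissues, was at 3.36 and 2.99 CPM with serum (166 and 126 reads) and 1.70 and 1.43 CPM without (66 and 57 reads). It was 2.02 times as high with serum (log2 fold change 1.02, interval 0.54 to 1.5, FDR 6.73e-05), the largest change of any member in this comparison. TEF was at 13.4 and 13.5 CPM with serum and 19.6 and 20.7 CPM without, and fell by 32.9% (log2 fold change -0.58, FDR 1.22e-12). BHLHE40, the E-box repressor, rose from 122 and 124 CPM without serum to 140 and 137 CPM with it (log2 fold change 0.17, interval 0.096 to 0.25, FDR 0.000105).

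**Figure D2:**
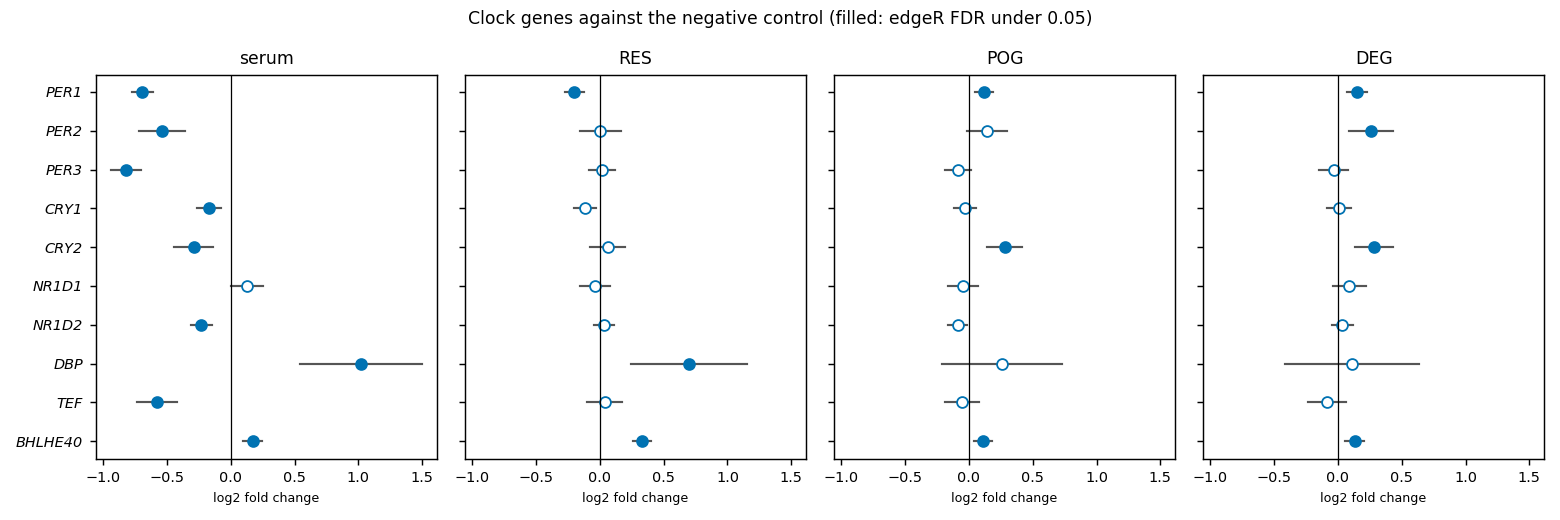
Log2 fold change of each clock gene against the negative controls, with the 95% interval as a bar, for serum, RES, POG and DEG on one shared axis. Filled points passed an FDR of 0.05 in edgeR's exact test. Serum moved 9 genes, with DBP at 1.02 and PER3 at -0.82 the extremes, and the compounds moved 3 or 4 each.

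Each compound gave fewer calls among the members than serum did. These 3 comparisons and the serum comparison share the negative controls, so the values are given side by side. With RES, 3 of 10 members were called against 11.2% of all genes, 2 higher (4.94% of all genes) and 1 lower (6.21%). With POG the members called numbered 3, all higher, against 14.5% of all genes in either direction, 5.93% higher and 8.57% lower. With DEG they numbered 4, all higher, against 9.63% of all genes, 3.52% higher and 6.11% lower. The median absolute log2 fold change of the members was 0.05 with RES, 0.099 with POG and 0.10 with DEG, where that of all genes was 0.098, 0.11 and 0.10.

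PER1 separated RES from POG and DEG. It was at 89.0, 91.4 and 91.2 CPM with RES, at 111, 115 and 113 CPM with POG and at 115 and 116 CPM with DEG. Against the negative controls at 104 CPM, the RES libraries were all lower and the POG and DEG libraries all higher. PER1 fell by 12.8% with RES (log2 fold change -0.20, interval -0.27 to -0.13, FDR 1.32e-05), a call kept under all 12 alternatives. It rose with POG (log2 fold change 0.12, interval 0.049 to 0.19, FDR 0.0151) and with DEG (0.15, interval 0.073 to 0.23, FDR 0.00548). The POG call was lost without negative control replicate 1 (FDR 0.148) or 2 (0.112), and without POG replicate 2 (0.0816) or 3 (0.0590). The DEG call was lost on leaving out any 1 library, with an FDR of 0.0827 and 0.0563 without negative control replicates 1 and 2, and of 0.0526 and 0.101 without DEG replicates 1 and 2.

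The other PER genes gave no call with RES or POG. PER2 was at 12.9, 12.5 and 13.6 CPM with RES, at 14.96, 13.88 and 14.05 CPM with POG and at 16.2 and 14.7 CPM with DEG. Its rise with DEG (log2 fold change 0.26, interval 0.084 to 0.43, FDR 0.0327) passed the threshold narrowly. It did not pass with the quasi-likelihood test (FDR 0.0556), DESeq2 (0.0700) or no filter on low counts (0.0681), nor without negative control replicate 1 (0.122), negative control replicate 2 (0.239) or DEG replicate 1 (0.447). PER3, which fell furthest of the PER genes with serum, stayed between 44.1 and 50.3 CPM in every serum-starved library. Its intervals against the negative controls were -0.085 to 0.12 with RES, -0.19 to 0.013 with POG and -0.14 to 0.079 with DEG.

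CRY2 was higher with POG and DEG. It was at 23.8, 25.4 and 27.4 CPM with POG and at 26.4 and 24.9 CPM with DEG, all above the negative controls at 20.7 and 21.4 CPM, while RES libraries at 20.8, 22.5 and 22.6 CPM overlapped the controls. The rise with POG (log2 fold change 0.28, interval 0.15 to 0.41, FDR 0.00057) was kept under all 12 alternatives. The rise with DEG (0.28, interval 0.14 to 0.43, FDR 0.00267) was lost without negative control replicate 2 (FDR 0.0762) or DEG replicate 1 (0.116). With serum the same gene fell. CRY1 was at 57.0, 54.8 and 57.3 CPM with RES, below both negative controls, yet its log2 fold change of -0.11 (interval -0.20 to -0.03) had an FDR of 0.0706. With dispersions from those 2 groups only, the FDR was 0.0364.

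No REV-ERB call was made for any compound. NR1D1 ran from 30.0 to 34.8 CPM over the compound-treated libraries and NR1D2 from 80.1 to 90.0 CPM. NR1D2 was at 81.8, 80.1 and 80.9 CPM with POG, below both negative controls, with a log2 fold change of -0.09 and an FDR of 0.138. With dispersions from those 2 groups only, the FDR was 0.0369. TEF, between 18.0 and 21.0 CPM in the compound-treated libraries, was not called either.

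DBP was at 2.38, 1.99 and 3.28 CPM with RES, from 106, 89 and 146 reads. All RES libraries were above the negative controls at 1.43 and 1.70 CPM. The log2 fold change was 0.70 (interval 0.25 to 1.2, FDR 0.0203). The gene was no longer called without negative control replicate 1 (FDR 0.0801), negative control replicate 2 (0.276) or RES replicate 3 (0.204). The level with POG (1.58, 1.95 and 2.11 CPM) and with DEG (2.04 and 1.35 CPM) overlapped the negative controls. The intervals were wide, -0.21 to 0.73 for POG and -0.42 to 0.64 for DEG, and held both 0 and values close to the change with RES.

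BHLHE40 was the 1 member called higher in all 4 groups against the negative controls they share. It was at 153, 154 and 157 CPM with RES, above every other library. The rise with RES (log2 fold change 0.33, interval 0.26 to 0.40, FDR 1.4e-16) was kept under all 12 alternatives. RES was above serum too (serum minus RES, log2 difference -0.16, interval -0.22 to -0.091, FDR 5.38e-05). With POG it was at 132, 137 and 130 CPM and with DEG at 134 and 136 CPM, all above the negative controls at 122 and 124 CPM. These rises of 0.11 (FDR 0.0245) and 0.13 (FDR 0.0195) on the log2 scale were less firm. That with POG was lost with no filter (FDR 0.0580) and without negative control replicate 1 (0.252), negative control replicate 2 (0.0997), POG replicate 1 (0.0622) or POG replicate 2 (0.155). That with DEG was lost with no filter (0.0667) and without negative control replicates 1 (0.219) and 2 (0.0792) or DEG replicates 1 (0.114) and 2 (0.188).

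Compared directly at the same dose by mass, PER1 and BHLHE40 had the lowest FDR among the members for both POG and DEG against RES, while DBP had the largest log2 differences. Between POG and RES 4 of 10 members were called, against 27.9% of all genes, 2 higher with POG (13.7% of all genes) and 2 lower (14.1%). PER1 was higher with POG than with RES by 0.32 on the log2 scale (interval 0.26 to 0.38, FDR 3.53e-19), and no library of either group lay in the range of the other. CRY2 was higher by 0.22 (interval 0.10 to 0.33, FDR 0.00138). BHLHE40 was lower with POG (log2 difference -0.22, interval -0.28 to -0.16, FDR 4.1e-10). NR1D2 was lower too (log2 difference -0.12, interval -0.19 to -0.050, FDR 0.00532), a call lost without RES replicate 1 (FDR 0.0516). DBP, at a log2 difference of -0.44 (interval -0.82 to -0.057), had an FDR of 0.0646. It passed without RES replicate 2 (0.0148), with a filter of at least 1 CPM on the mean (0.0437) and with dispersions from the 2 groups only (0.0292). PER3 (FDR 0.0659) passed with that filter (0.0427) and with those dispersions (0.0197). CRY1 (FDR 0.0961) passed with those dispersions (0.0449).

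Between DEG and RES 6 of 10 members were called, against 21.2% of all genes, 4 higher with DEG (10.3% of all genes) and 2 lower (10.8%). PER1 was higher with DEG by 0.35 on the log2 scale (interval 0.28 to 0.42, FDR 4.52e-18) and BHLHE40 lower (log2 difference -0.20, interval -0.27 to -0.13, FDR 1.53e-06), both kept under all 12 alternatives. PER2 (0.25, FDR 0.00801), CRY2 (0.22, FDR 0.00605) and CRY1 (0.12, FDR 0.0265) were higher. Without DEG replicate 1 the FDR was 0.279 for PER2, 0.169 for CRY2 and 0.129 for CRY1. CRY2 was also lost without RES replicate 3 (0.0571), and CRY1 without RES replicate 2 (0.133), without DEG replicate 2 (0.187) and with no filter (0.0867). DBP was lower with DEG (log2 difference -0.59, interval -1.04 to -0.14, FDR 0.0372), but not past the threshold with the quasi-likelihood test (0.0573) or DESeq2 (0.0716), nor without RES replicate 1 (0.0514), RES replicate 3 (0.291) or DEG replicate 2 (0.530).

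Between DEG and POG none of the 10 members was called by edgeR's exact test, where 1.05% of all genes were, 0.55% higher with DEG and 0.497% lower. NR1D1 (unadjusted p = 0.0203, FDR 0.315) and NR1D2 (unadjusted p = 0.00213) had the lowest p of the members in that test, both higher with DEG. The share of all genes with an unadjusted p as low was not computed. NR1D2 was at 88.8 and 87.7 CPM with DEG against 81.8, 80.1 and 80.9 CPM with POG, a log2 difference of 0.12 (interval 0.047 to 0.20) with no overlap. Its FDR was 0.117, and 0.00555 when dispersions came from those 2 groups only. The interval of the difference was -0.040 to 0.10 for PER1, -0.049 to 0.088 for BHLHE40 and -0.12 to 0.13 for CRY2, and it was widest for DBP (-0.61 to 0.31).

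**Figure D3:**
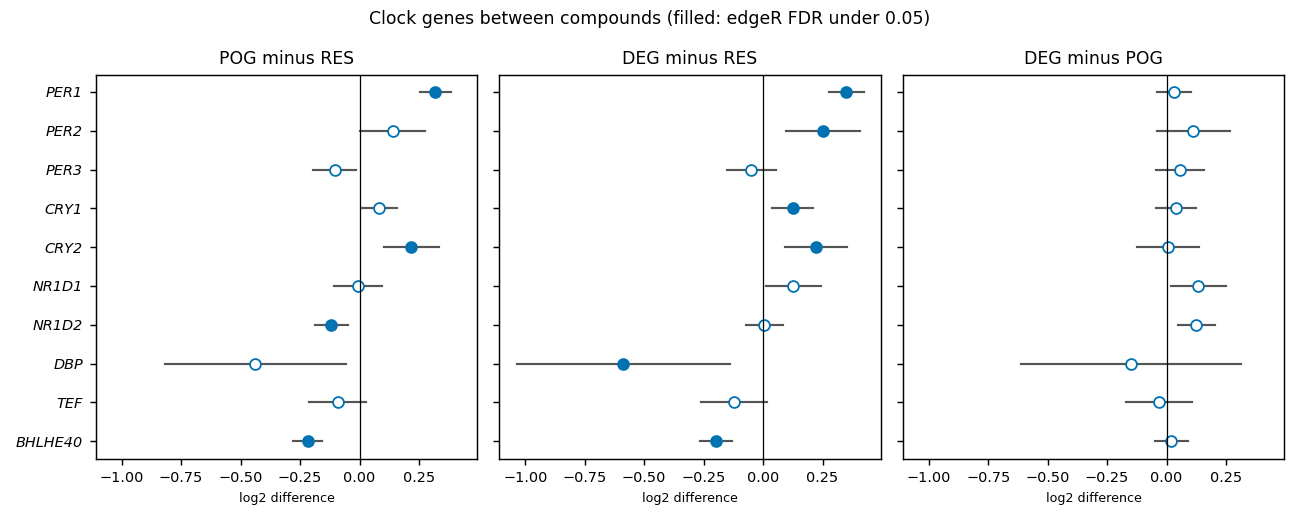
Log2 difference of each clock gene between compounds, POG minus RES, DEG minus RES and DEG minus POG, with 95% intervals, on one shared axis. Filled points passed an FDR of 0.05 in edgeR's exact test. PER1 lies at 0.32 and 0.35 and BHLHE40 at -0.22 and -0.20 against RES, and no point is filled between DEG and POG.

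Most members differed between serum and each compound. Serum against RES called 8 members, where 45.7% of all genes were called. Serum against POG called 9 (47.9% of all genes) and serum against DEG called 8 (43.4%). The members not called were CRY1 and DBP against RES, BHLHE40 against POG, and NR1D1 and BHLHE40 against DEG. CRY1 against RES had an interval of -0.14 to 0.029 and DBP one of -0.077 to 0.72. DBP was called against RES without RES replicate 3 (FDR 0.0201), and CRY1 when libraries were scaled by totals only (0.00999). NR1D1 was higher with serum than with RES (log2 difference 0.16, FDR 0.00933) and POG (0.17, FDR 0.00655). The first call was lost without RES replicate 3 (FDR 0.0774) and the second without POG replicate 3 (0.0510), and both with scaling by totals (0.165 and 0.118). DBP against DEG was lost without DEG replicate 2 (0.0598).

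Ordered by group mean, PER1 ran from DEG (115 ± 0.955 CPM, SD, n = 2) and POG (113 ± 1.91, n = 3) through the negative controls (104 ± 0.280, n = 2) and RES (90.5 ± 1.37, n = 3) to serum (64.4 ± 1.62, n = 2). Of the 4 pairs of neighbours, 3 passed edgeR's exact test and DEG against POG did not (FDR 0.859). BHLHE40 ran from RES (155 ± 2.09 CPM) through serum (139 ± 1.90), DEG (135 ± 1.07) and POG (133 ± 3.43) to the negative controls (123 ± 1.55). There the top pair and the bottom pair of neighbours differed, and serum, DEG and POG did not pass the test between neighbours (FDR 0.447 and 0.928). For PER2, PER3, NR1D2 and TEF the lowest step, down to serum, was the only one between neighbours to pass. For CRY2 the steps from POG to RES and from the negative controls to serum passed, and for CRY1, NR1D1 and DBP no step between neighbours did.

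**Figure D4:**
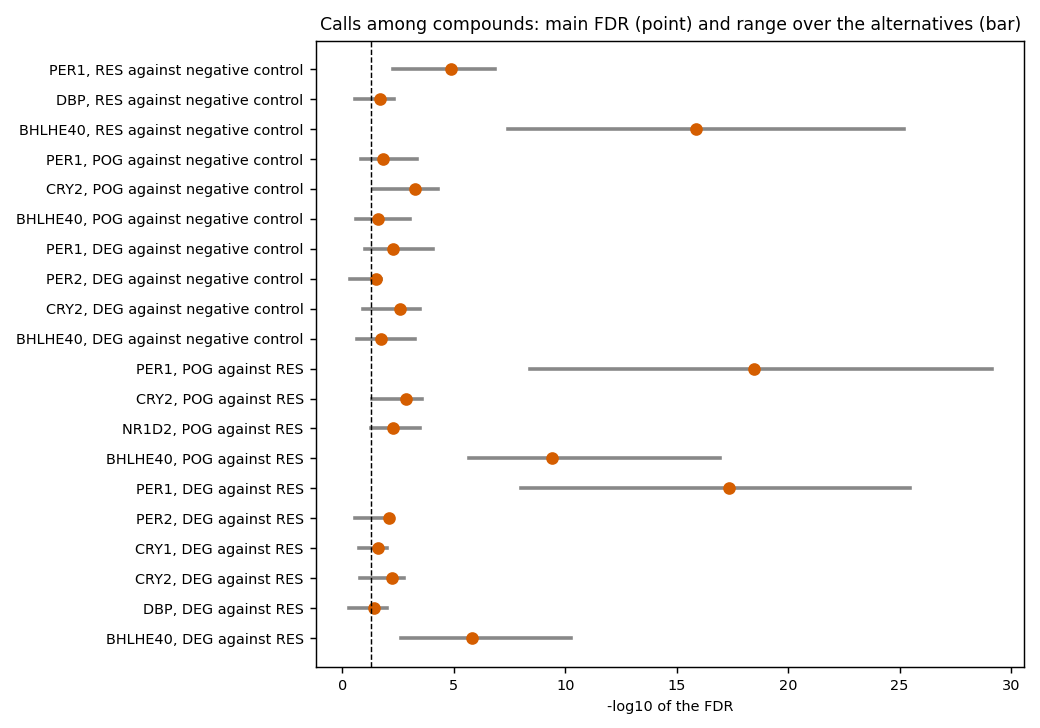
The 20 calls among compounds, as -log10 of the FDR, with the value reported as a point and the range over the alternatives as a bar. The dashed line marks an FDR of 0.05. PER1 and BHLHE40 against RES and with RES stay to the right of the line throughout, and the bars of most other calls cross it.

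Some members share bases with a gene on the opposite strand. The library kit selects a strand, but the strand setting of the counting was not stated, so reads of such pairs may be mixed. NR1D1 shares 18.0% of its exonic bases with THRA, the thyroid hormone receptor gene, which was more abundant (93.3 CPM in negative controls) and fell with serum (log2 fold change -0.13, FDR 0.0113) where NR1D1 was not called. DBP shares 10.2% with SPHK2, a sphingosine kinase, at 20.5 CPM in negative controls and 19.4 CPM with serum. SPHK2 was not called with serum (FDR 0.423) or RES (0.262), where DBP was higher, and was lower with POG (log2 fold change -0.22, FDR 0.00675) and DEG (-0.22, FDR 0.0315). PER3 shares 10.7% with UTS2, which had 8 reads in all libraries together, and BHLHE40 shares 12.8% with its antisense RNA BHLHE40-AS1.

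A list of 24 other clock genes was read for context. Of these, 20 had enough reads to test. Serum called 8 of them, 4 higher and 4 lower, RES 6 (3 higher and 3 lower), and POG and DEG 2 each, all lower. The shares over all genes are those given above, 42.4%, 11.2%, 14.5% and 9.63%.

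Among the activators, NPAS2, which can stand in for CLOCK, was lower in all 4 groups than in the negative controls they share. It was at 148 and 145 CPM in negative controls, 128 and 129 CPM with serum, 132, 135 and 134 CPM with RES, 128, 131 and 129 CPM with POG and 122 and 121 CPM with DEG. The log2 fold changes were -0.19, -0.13, -0.18 and -0.27, and only the fall with RES was lost on leaving out a library (FDR 0.124 without negative control replicate 1). BMAL1 was called with RES alone (log2 fold change -0.31, FDR 0.0123). That call was lost without negative control replicate 1 (FDR 0.197) or 2 (0.0587) or RES replicate 2 (0.0958), and RES was not shown to differ in BMAL1 from POG or DEG. CLOCK was called in none of the 4.

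NFIL3, which represses at D-boxes where DBP and TEF activate, was at 24.0 and 24.0 CPM in negative controls and 18.4 and 17.9 CPM with serum (log2 fold change -0.40, FDR 6.96e-08). It was lower with RES (-0.23, FDR 0.00468) and POG (-0.21, FDR 0.00829), both lost without negative control replicate 1 (FDR 0.0715 and 0.0862) or 2 (0.0818 and 0.10), and the latter without POG replicate 2 (0.0590). BHLHE41, the close relative of BHLHE40, was lower with serum (log2 fold change -0.31, FDR 0.000356) and DEG (-0.33, FDR 0.00185), where BHLHE40 was higher. The serum call was lost without positive control replicate 2 (FDR 0.0530).

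KLF10, a zinc finger factor under clock control and also induced by TGF-beta, was higher with serum, at 69.9 and 70.1 CPM against 40.6 and 39.9 CPM (log2 fold change 0.80, FDR 2.52e-41). With RES it was at 53.7, 50.6 and 49.0 CPM (log2 fold change 0.35, FDR 2.45e-08). With POG its log2 fold change of 0.15 against the negative controls missed the threshold narrowly (FDR 0.0519). Of 12 alternatives 7 gave no call for POG either, while it passed with library totals (0.018) or dispersions from the 2 groups only (0.0103), among others. With DEG the log2 fold change was 0.094 (FDR 0.402). KLF10 was lower with POG than with RES (log2 difference -0.20, FDR 0.000263), and lower with DEG than with RES (-0.25, FDR 6.42e-05).

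The other calls with serum were TIMELESS, with roles in the replication fork, at -0.27 (FDR 8.98e-11), NOCT at 0.27 (FDR 0.000287), the kinase gene CSNK1E at 0.13 (FDR 0.00218) and the mitotic kinase gene WEE1 at 0.15 (FDR 0.0076), as log2 fold changes. WEE1 was lost without positive control replicate 2 (FDR 0.0856) or negative control replicate 2 (0.101) and with scaling by library totals (0.0713). With dispersions from the compared groups only, both WEE1 (0.0913) and CSNK1E (0.0865) were lost. With RES, BTRC, part of a ubiquitin ligase for PER proteins, was higher by 0.20 (FDR 0.00358) and the kinase gene GSK3B by 0.12 (FDR 0.0383) on the log2 scale. BTRC was lost without negative control replicate 1 (0.0806) or 2 (0.0527). GSK3B was lost on leaving out any 1 library (0.0657 to 0.295) and with no filter (0.0801). Between compounds 3 of the 20 were called for POG against RES and 5 for DEG against RES, and none for DEG against POG by edgeR's exact test. Over all genes the shares called were 27.9%, 21.2% and 1.05%, in that order.

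**Figure D5:**
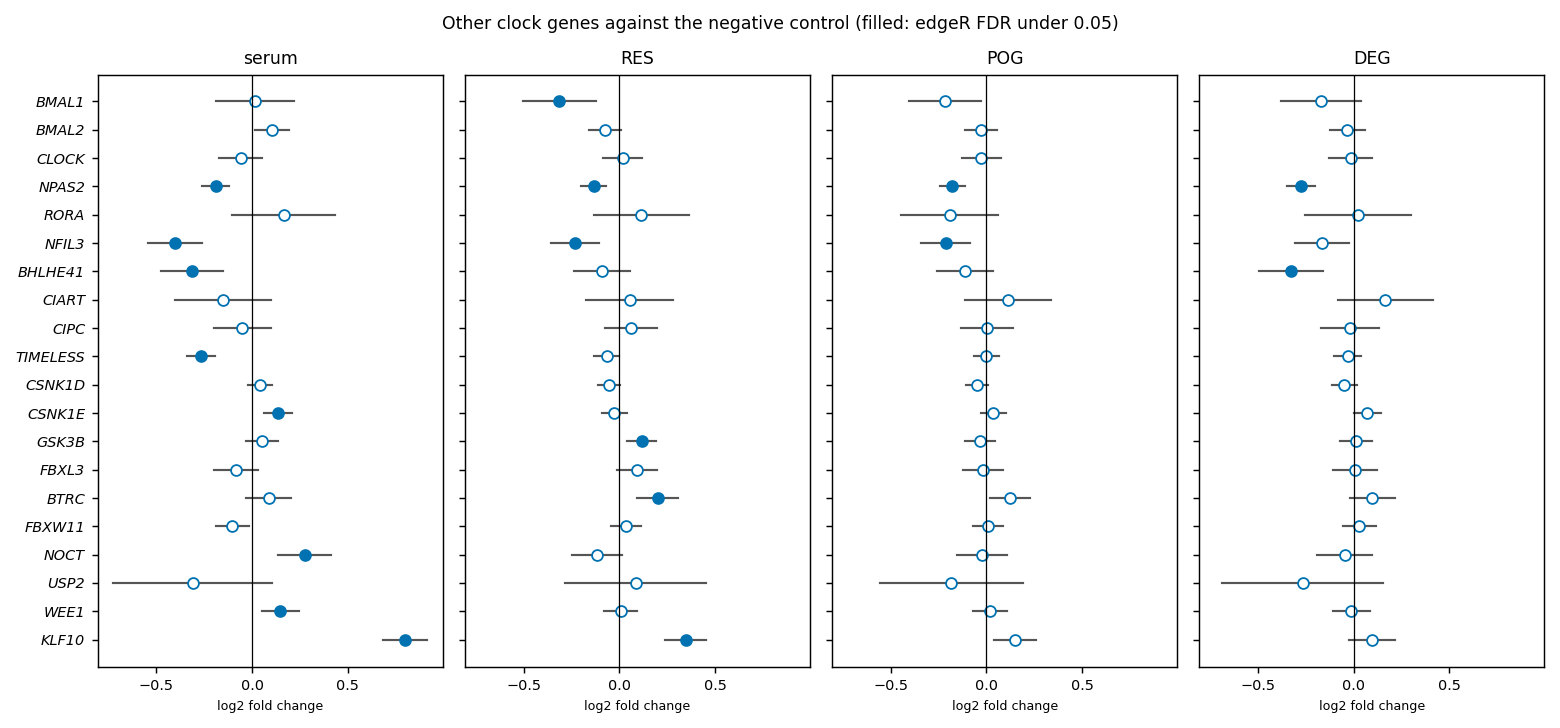
Log2 fold change against the negative controls of the 20 other clock genes tested, with 95% intervals, in panels from serum to DEG on one shared axis. Filled points passed an FDR of 0.05 in edgeR's exact test. NPAS2 is filled and below 0 in every panel, and KLF10 lies furthest to the right with serum, at 0.80. All panels share the same negative controls.

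For the 3 members whose group means ranged most, the genes with the closest pattern were sought among 13396 genes by the root mean square distance between the 4 log2 fold changes against the negative controls. For PER1 they were LRP8, HAPLN3 and LZTS3, at distances of 0.035, 0.039 and 0.044. PER3 was closest to C1R (0.028), STOX1 (0.035) and C17orf49 (0.040). DBP lay closest to LNCOG, ROR1 and PPP1R14A, at 0.11, 0.12 and 0.12. LRP8, a lipoprotein receptor, had log2 fold changes of -0.71 under serum, -0.19 under RES, 0.15 under POG and 0.096 under DEG, and C1R, a complement protease, -0.81, 0.068, -0.071 and -0.040. The 4 values share the negative controls, so likeness is a description only.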

How the data were processed

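Poly(A) RNA of 13 labelled samples in 5 groups was sequenced as read pairs. Per the labels and the study's methods, the authors aligned reads to hg38 with STAR and counted reads on Ensembl genes with featureCounts (version, annotation release and strand setting not given in the sources used here), and deposited raw counts per gene, not normalized. The table held 12 library columns; DEG replicate 3 had none and was not analysed here, although the planned design counted on it. Symbols were matched for 43177 of 43836 identifiers. Replicate numbers follow accession order.

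Genes were filtered with filterByExpr by group (17092 kept, holding 99.967% of reads), scaled by TMM, and tested with the exact test of edgeR 4.0.16 in R 4.3.3, with dispersions from all 12 libraries (common biological coefficient of variation 3.21%) and Benjamini-Hochberg adjustment over all genes tested. Called means FDR under 0.05. The quasi-likelihood fit gave the 95% intervals. CPM used the reads of each library in the genes kept, multiplied by its TMM factor. Before the filter, library totals ran from 38464619 to 51416358 reads. The test was checked on simulated counts. Alternatives were the quasi-likelihood test, DESeq2 1.42.0, other scalings, filters, dispersions and thresholds, and each library left out in turn; where that left 1 library in a group, it was taken to vary like the other groups. The canonical transcript length was added after seeing the data.

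All members, and listed clock genes called against the negative control, may be named, with the 3 nearest genes of each of the 3 members of widest range. Members and lists were chosen with earlier results of these data known. Promoter sequences came from RefSeq and gene models from GENCODE v44, both on GRCh38.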

Additional observations from a re-analysis of the deposited data

How the results depend on the processing

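Over the members, 1122 of 1180 log2 fold changes kept their direction where called and their side of the threshold, 47 lost the call, 11 gained it, and no called value changed sign. The share of all genes called was not computed under the alternatives. The counts below therefore cannot tell a shift of these genes from a shift of all genes. The number of members called moved by over 1.5 times as follows. With no filter it was 2 for DEG against negative controls (4 as reported). With dispersions from the 2 groups only it was 7 for POG against RES (4) and 1 for DEG against POG (0). At an FDR under 0.01 it was 1 for POG (3) and 2 for DEG (4) against negative controls. Leaving out 1 library gave 9 to 9 calls for serum, 2 to 3 for RES, 1 to 2 for POG and 0 to 2 for DEG against negative controls. Between compounds it gave 3 to 5 for POG against RES, 3 to 5 for DEG against RES and 0 to 0 for DEG against POG, and for serum it gave 8 to 8 against RES, 8 to 9 against POG and 7 to 8 against DEG. A left-out library lowers the number of samples, and for the other changes the cause was not tested. Of the other clock genes, those called for RES numbered 1 without negative control replicate 1 and 2 without replicate 2 (6 as reported), and those for POG 4 with library totals only and 1 without either negative control (2 as reported). Against RES they numbered 6 for POG with dispersions from the 2 groups only (3), and for DEG 3 with no filter, 2 at an FDR under 0.01, 3 without RES replicate 1 and 2 without either DEG library (5). For DEG against POG they numbered 1 with dispersions from the 2 groups only (0).

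Scaling by library totals in place of TMM moved the median of all genes by at most 0.070 on the log2 scale (serum against RES, -0.070), and 11 group levels of members by more than their SD, 7 of them in the controls grown with serum. No paired analysis was possible because the labels give no replicate numbers that groups share. Depth limits DBP most, at 53 to 166 reads per library.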
